A study of Arabidopsis thaliana with 12 samples.

Results

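The WRKY transcription factor family of Arabidopsis thaliana was followed in plants that carried candidate effectors of Melampsora larici-populina, the fungus that causes poplar rust. The members were 55 WRKY genes listed by locus, out of 32833 loci in the count tables. Of the 55, 50 had enough counts to be tested, among 19090 tested loci. Family and subgroups below mean these listed genes, and WRKY genes outside the list were not examined. The Mlp37347 group carried Mlp37347 fused to GFP (green fluorescent protein) and the BAR herbicide resistance gene, the Mlp124499 group carried an Mlp124499-GFP fusion and BAR, and Control plants carried GFP alone and BAR. All 3 groups were stable transgenic lines in the Col-0 ecotype, with 4 libraries each, so GFP and BAR were shared by effector lines and Control. Each library came from pooled above-ground tissue of soil-grown plants that were 15 days past germination, grown at 22 °C with 16 h of light a day. The labels give neither the promoter of the transgenes, nor the number of independent lines per construct, nor whether the 4 libraries of a group were grown separately. The p-values therefore measure the spread between these samples, which may be technical. Transgene transcripts were not analysed here.

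WRKY proteins bind DNA through a domain named after its conserved WRKYGQK residues and a zinc finger, and most recognise the W box, a promoter element built around TTGAC. Group I members carry a pair of WRKY domains, groups II and III carry 1 domain each, and group II is divided by sequence into IIa to IIe. Many members are induced within minutes to hours by microbial patterns or salicylic acid. Several act as activators or repressors of defence genes, including other WRKY genes, and others control senescence, phosphate uptake, trichomes or seed development.

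Promoter windows of 4 members are shown as examples with many, some or no W boxes, WRKY53, WRKY33 and WRKY70 having fallen in both effector lines and WRKY30, which passed in neither, holding the most W boxes. Each window holds the 250 bases before the annotated start of the gene in TAIR10.1, written 5′ to 3′ on the strand of the gene, and capitals mark TTGACC or TTGACT on either strand (GGTCAA or AGTCAA on the other).
WRKY30 (chr5:8154711-8154960, minus strand): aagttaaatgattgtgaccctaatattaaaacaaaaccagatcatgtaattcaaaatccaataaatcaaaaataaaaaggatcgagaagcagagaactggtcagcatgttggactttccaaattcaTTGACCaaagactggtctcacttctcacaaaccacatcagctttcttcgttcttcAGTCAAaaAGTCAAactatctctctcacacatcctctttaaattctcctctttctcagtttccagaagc
WRKY53 (chr4:12393983-12394232, minus strand): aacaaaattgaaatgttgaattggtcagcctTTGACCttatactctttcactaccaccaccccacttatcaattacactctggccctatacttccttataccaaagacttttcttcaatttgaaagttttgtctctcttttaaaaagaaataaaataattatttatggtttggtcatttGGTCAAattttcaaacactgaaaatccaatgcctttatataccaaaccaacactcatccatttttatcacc
WRKY33 (chr2:16107985-16108234, plus strand): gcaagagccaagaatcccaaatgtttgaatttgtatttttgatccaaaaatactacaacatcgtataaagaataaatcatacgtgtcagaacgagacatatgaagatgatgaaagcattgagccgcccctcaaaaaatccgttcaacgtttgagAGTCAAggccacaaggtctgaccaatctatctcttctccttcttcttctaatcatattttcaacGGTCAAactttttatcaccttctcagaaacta
WRKY70 (chr3:20910624-20910873, minus strand): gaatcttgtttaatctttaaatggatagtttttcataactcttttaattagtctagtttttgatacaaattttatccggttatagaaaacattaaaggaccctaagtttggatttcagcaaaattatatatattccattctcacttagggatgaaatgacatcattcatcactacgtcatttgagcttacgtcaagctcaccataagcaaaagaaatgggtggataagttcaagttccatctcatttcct
The search found 3 W boxes for WRKY30, 2 for WRKY53, 2 for WRKY33 and 0 for WRKY70, and no matches overlapped. At least 1 W box lay in 20 of the 55 WRKY windows (36.4%), against 28.4% of the windows of 27443 protein-coding nuclear genes. At least 2 W boxes lay in 10 of 55 (18.2%), against 6.18% of all windows. Group III had at least 1 W box in 5 of 9 windows and at least 2 in 4 of 9, and group IIa had 0 in its 3 windows. These matches describe letters in a window and say nothing about binding.

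No member was at 0 counts in all 12 libraries. A mean of at least 1 CPM (counts per 1000000 counts, scaled by the TMM method of edgeR) was reached in Control by 47 of 55 members, and at least 10 CPM by 27. The 5 members that were too low to test were WRKY9 and WRKY35, which stayed at or under 0.592 CPM in every library, WRKY41, at 1.59 CPM in Control 1 and at or under 0.604 CPM elsewhere, and WRKY10 and WRKY34. WRKY10, known from seed endosperm, had 3 counts in all and WRKY34, known from pollen, had 2.

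Levels of different genes were compared as CPM per kb of exon. In Mlp37347 the order of mean levels began with WRKY15 at 73.3 (42.1 to 162), WRKY25 at 28.9 (24.4 to 31.0) and WRKY33 at 26.2 CPM per kb (15.1 to 53.9). The highest values of WRKY15 and WRKY33 were those of Mlp37347 4, and over Mlp37347 1 to 3 alone, a choice made after seeing the data, the order was WRKY15 at 43.7, WRKY18 at 32.5 and WRKY25 at 28.3 CPM per kb, with WRKY33 outside the first 6. In Mlp124499 it began with WRKY15 at 37.9 (25.0 to 51.1), WRKY70 at 31.8 (22.9 to 39.1) and WRKY33 at 28.8 CPM per kb (23.3 to 37.0). In Control it began with WRKY70 at 91.7 (57.5 to 124), WRKY33 at 89.8 (51.8 to 149) and WRKY15 at 72.0 CPM per kb (56.8 to 92.9). The ranges of the 3 leading members overlapped in Mlp124499 and in Control, so their order was not resolved there.

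**Figure D1:**
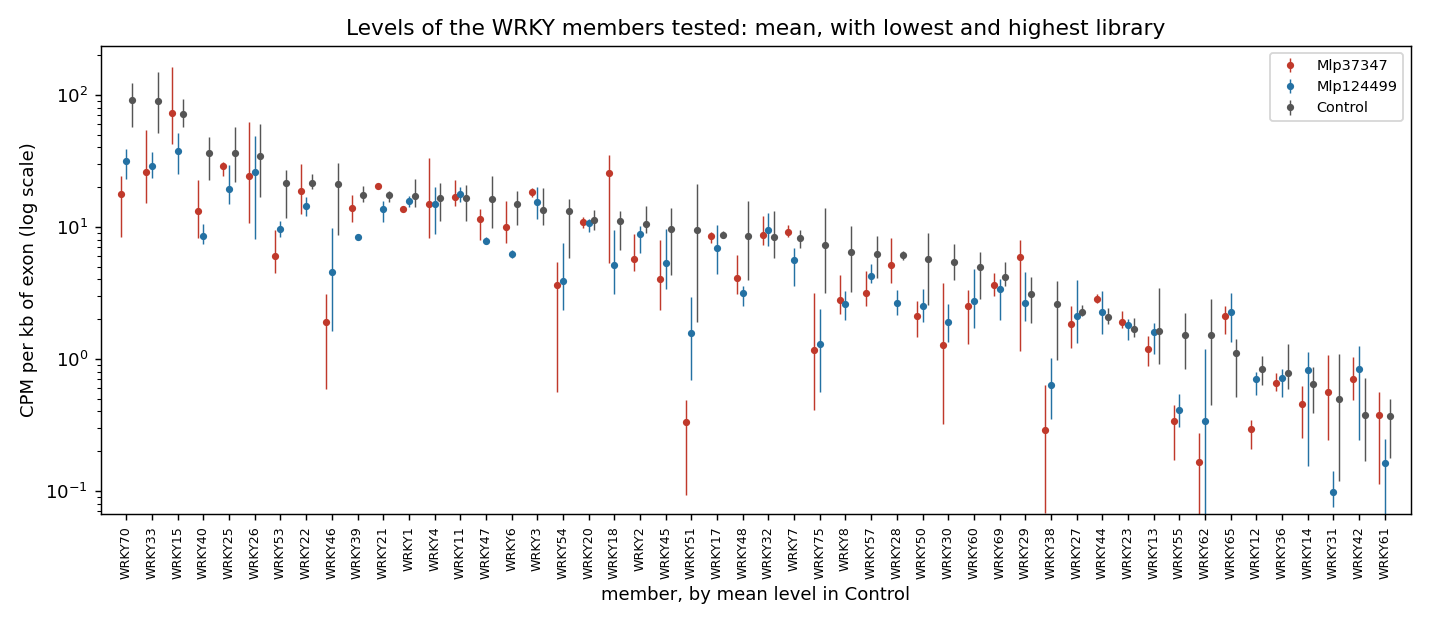
Mean level in CPM per kb of exon (log scale) of the 50 tested WRKY members in Mlp37347, Mlp124499 and Control, ordered by the mean in Control. Lines run from the lowest to the highest of 4 libraries and stop at the axis where a library is at or near 0, and WRKY70, WRKY33 and WRKY15 lead in Control with overlapping ranges.

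In Mlp37347 13 of the 50 tested members fell and 0 rose, and in Mlp124499 11 fell and 0 rose (edgeR quasi-likelihood test, adjusted p under 0.05 over all tested genes). Higher values with an unadjusted p under 0.05 were found for 2 members in each line, WRKY18 and WRKY65 in Mlp37347 and WRKY42 and WRKY65 in Mlp124499, and DESeq2 called 0 higher in either. The 13 were 26% of the tested members, while 5.42% of all tested genes fell and 3.19% rose in Mlp37347. The 11 were 22%, while 2.71% of all tested genes fell and 1.56% rose in Mlp124499. The median log2 fold change of the 50 members was -0.37 in Mlp37347, against 0.01 over all tested genes, and -0.84 in Mlp124499, against -0.01. In Mlp37347 36 members had a negative log2 fold change, and in Mlp124499 41 had one. All 4 Mlp37347 libraries lay below all 4 Control libraries for 13 members (26%, against 10.8% of all genes) and above them for 3 (6%, against 8.41%), and all 4 Mlp124499 libraries lay below for 14 (28%, against 6.64%) and above for 0 (against 4.31%). Both comparisons use the same Control libraries, so their values stand side by side below and are not independent. The mate inner distance set for alignment was 110 to 115 bp in Mlp37347 1 to 3 and 50 to 84 bp in the other libraries. In a fit with this distance as a covariate 0 members fell in Mlp37347 (0.555% of all genes) and 13 fell in Mlp124499 (3.88% of all genes), by edgeR. The 13 members called in Mlp37347 all stayed negative, with adjusted p = 0.0551 to 0.783 (edgeR). WRKY70 at -2.90, WRKY46 at -3.39, WRKY12 at -1.63 and WRKY38 at -2.57 were about as large as without the covariate. The other 9 moved over 1.5 times closer to 0, WRKY51 to -2.48, WRKY55 to -1.16, WRKY53 to -0.79, WRKY75 to -0.71, WRKY50 to -0.55, WRKY40 to -0.41, WRKY33 to -0.36, WRKY2 to -0.23 and WRKY57 to -0.16. Within its line only Mlp37347 4 lay outside 110 to 115 bp, at 70 bp. Control 4 was at 84 bp, against 50 to 60 bp in Control 1 to 3. The slope of the distance comes from the spread within all groups, so the covariate fit leans mostly on Mlp37347 4 and Control 4. That fit cannot cleanly separate the line from the distance.

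**Figure D2:**
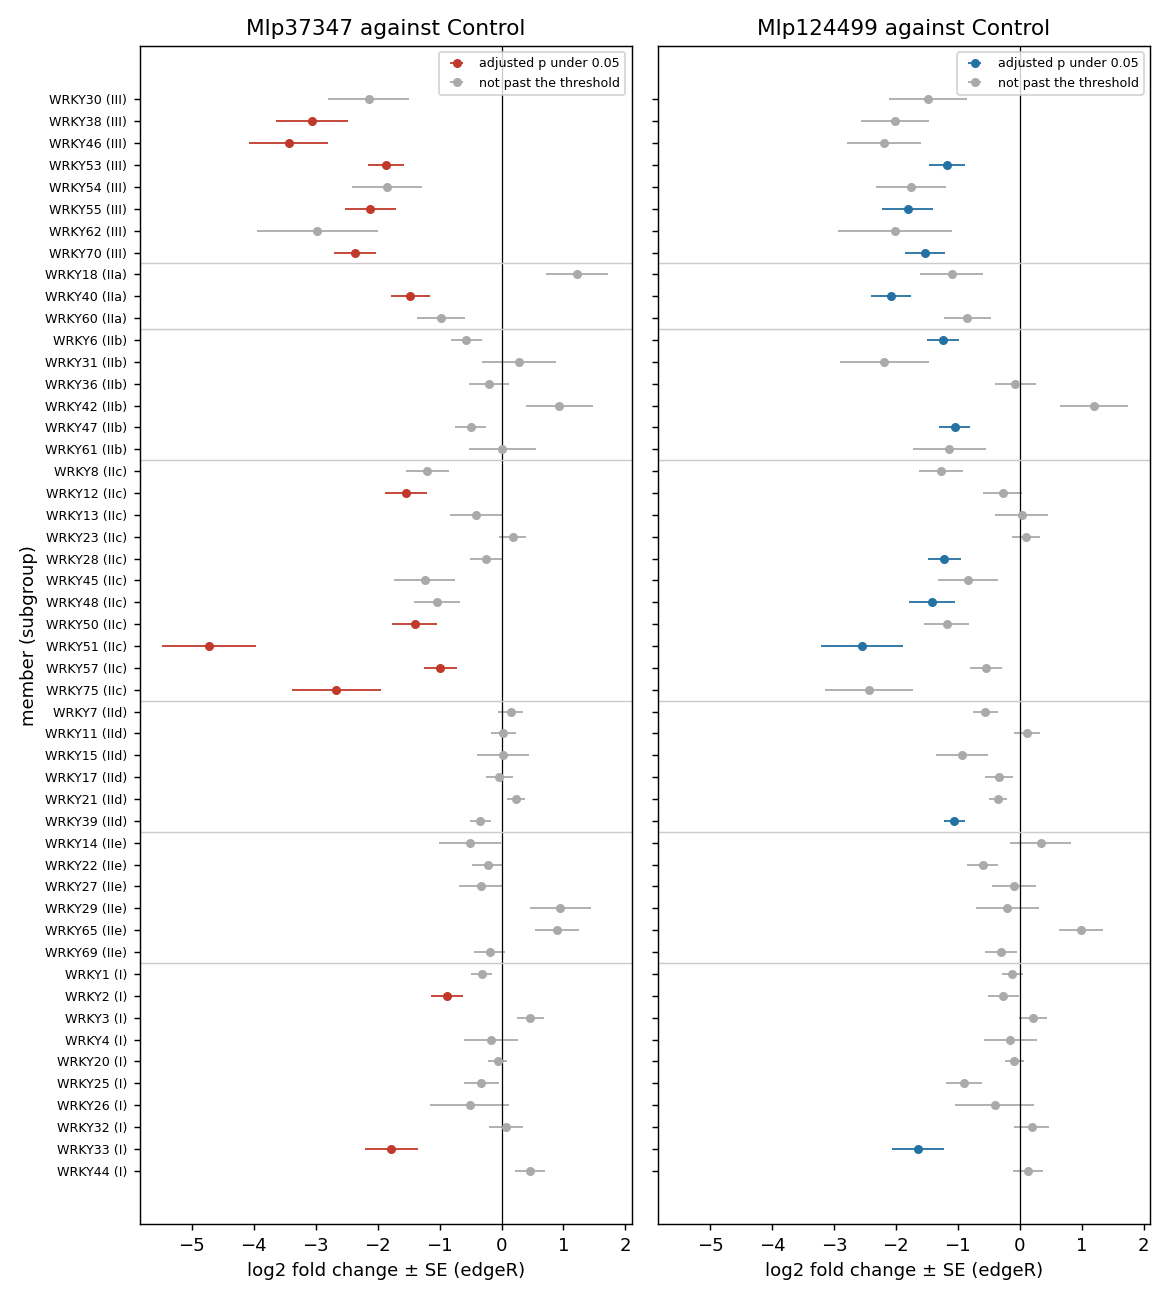
Log2 fold change (points) with its standard error (lines) of the 50 tested WRKY members in Mlp37347 against Control and in Mlp124499 against Control, from edgeR, by subgroup. Coloured points passed an adjusted p of 0.05, 13 of them in the panel of Mlp37347 and 11 in that of Mlp124499, and all coloured points lie left of 0.

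Some libraries stood apart within their group. Mlp37347 1, 2 and 3 lay close together (2.93 to 6.64 chi-square per degree of freedom over genes) and far from Mlp37347 4 (164 to 223), and Mlp124499 1 and 2 were at 7.30, against 43.3 to 141 for the other pairs of that line. Total counts ran from 12368262 to 24483245 in Mlp37347, from 10813288 to 14733894 in Mlp124499 and from 6645703 to 37378917 in Control. Of the reads of Control 1, 57.6% were aligned, against 88.0% to 95.5% in the other libraries. Circadian clock genes also split the libraries, PRR5 being at 40.4, 62.3, 40.7 and 192 CPM in Mlp37347 1 to 4, at 64.3, 64.1, 59.2 and 1.75 CPM in Mlp124499 1 to 4 and at 0.470 to 2.41 CPM in Control. Summed CPM of 4 leaf markers was 52938 to 75282 in Mlp37347, 49992 to 59950 in Mlp124499 and 21294 to 41700 in Control. All 4 had positive log2 fold changes in both effector lines, and 1 of them (LHCA1) rose in Mlp37347 and 0 in Mlp124499. Of 5 root markers 1 passed the low-count filter, and their summed level was 0.266 to 1.40 CPM in Mlp37347, 1.24 to 3.70 CPM in Mlp124499 and 0.929 to 5.65 CPM in Control, with 1 marker at 0 in all Mlp37347 libraries and 2 at 0 in all Mlp124499 libraries. The 5.65 CPM was that of Control 4, against 0.929 to 2.28 CPM in Control 1 to 3. Of 4 flower markers 2 passed the low-count filter, and all 4 together summed to 1.34 to 2.62 CPM in Mlp37347, 1.62 to 3.79 CPM in Mlp124499 and 1.43 to 3.45 CPM in Control. Trichome markers summed to 67.8 to 175 CPM in Mlp37347, 67.4 to 76.9 CPM in Mlp124499 and 70.6 to 90.1 CPM in Control, and 1 of the 4 tested (TRY) fell in Mlp37347. Most of these sums came from TTG1 and GL2, so similar sums need not mean similar trichome content. TRY had 152 counts in Mlp124499 4, against 3 to 8 in Mlp124499 1 to 3 and 58 to 142 in Control. The part of tissue makeup, clock phase and alignment in the WRKY results was not tested, and in bulk tissue fewer cells of a type and less RNA per cell cannot be told apart.

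Of the 8 tested members of group III, 5 fell in Mlp37347 and 3 in Mlp124499. Over all tested genes 5.42% fell in Mlp37347 and 2.71% in Mlp124499, the shares to set beside each subgroup below. All 8 had negative log2 fold changes in both lines, with medians of -2.25 in Mlp37347 and -1.78 in Mlp124499. The summed level of the 9 listed members, with the untested WRKY41, was 33.7 to 54.96 CPM in Mlp37347, 56.1 to 103 CPM in Mlp124499 and 130 to 300 CPM in Control. Neither effector line overlapped with Control in this sum, of which WRKY70 alone was 84.5 to 182 CPM in Control. For all 8 members the Mlp37347 libraries lay below every Control library (10.8% of all genes), and for 4 of 8 the Mlp124499 libraries did (6.64%). Without the libraries numbered 4 of both effector lines, 8 of 8 fell in each line, while 15.9% of all genes fell in Mlp37347 and 10.5% in Mlp124499. That fit left out effector libraries only and kept every Control library, and calls rose over all genes too.

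**Figure D3:**
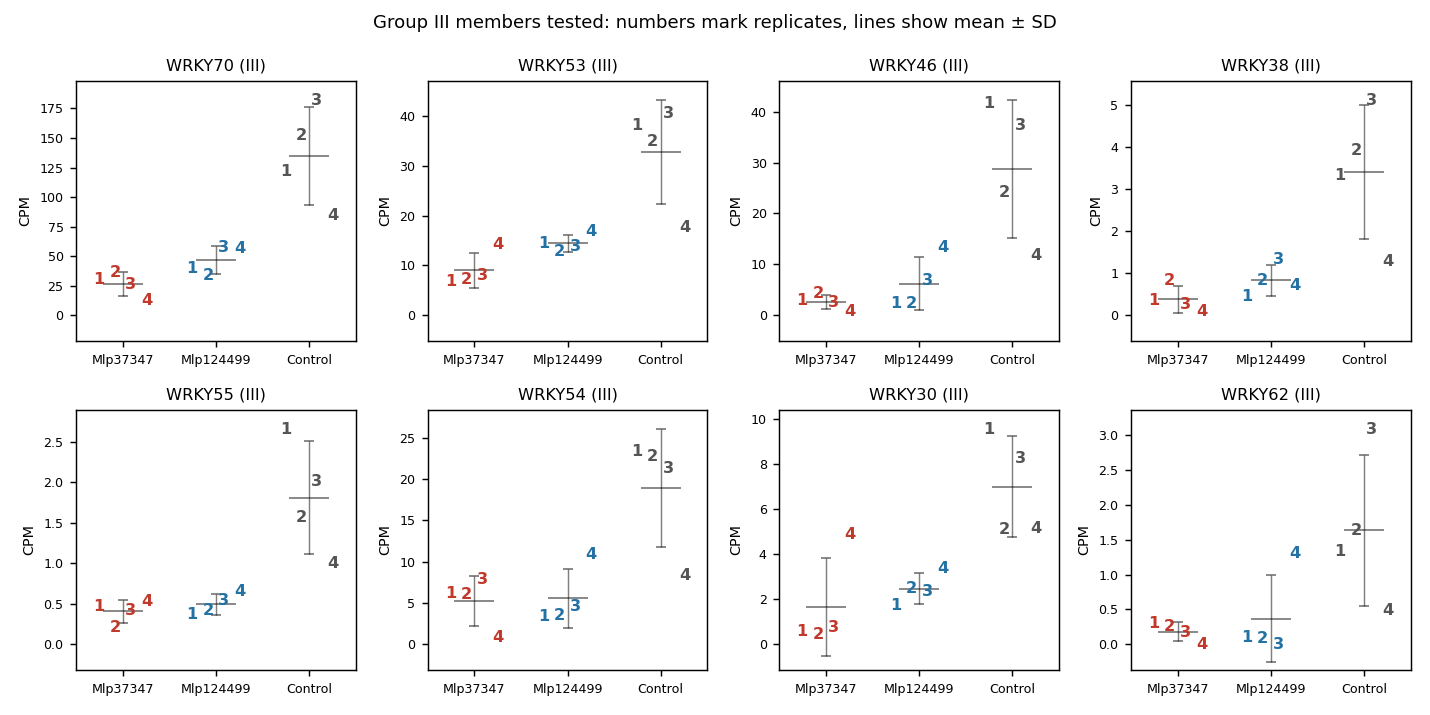
CPM of the 8 tested group III members in Mlp37347, Mlp124499 and Control, with digits marking libraries 1 to 4 and lines the mean ± SD. Control 4 is the lowest Control library for 7 of the 8 members, and the Mlp37347 libraries lie below all Control libraries in every panel.

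WRKY70 (AT3G56400), a regulator that promotes salicylic acid responses and represses jasmonate responses, had the highest level of group III in Control. It was at 30.4, 35.8, 25.8 and 12.2 CPM in Mlp37347, at 39.6, 33.6, 57.5 and 56.1 CPM in Mlp124499 and at 121, 152, 182 and 84.5 CPM in Control. Neither effector line overlapped with Control. It fell by 2.37 ± 0.34 on the log2 scale in Mlp37347 (SE, adjusted p = 0.0019, edgeR) and by 1.53 ± 0.33 in Mlp124499 (adjusted p = 0.022, edgeR). The call in Mlp37347 held without any 1 of the 12 libraries, and that in Mlp124499 was lost without Control 2, Control 3, Mlp124499 1 or Mlp124499 2 (adjusted p = 0.0611 to 0.0945, edgeR).

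WRKY53 (AT4G23810), a promoter of leaf senescence that also acts in basal defence, was at 6.77, 7.18, 7.93 and 14.3 CPM in Mlp37347, at 14.4, 12.8, 13.9 and 16.9 CPM in Mlp124499 and at 38.1, 35.0, 40.5 and 17.6 CPM in Control. Control 4 lay just above the highest effector library. WRKY53 fell by 1.86 ± 0.29 in Mlp37347 (log2, SE, adjusted p = 0.0033, edgeR) and by 1.18 ± 0.29 in Mlp124499 (adjusted p = 0.038, edgeR). The second call held only without Control 4, Mlp37347 4 or Mlp124499 4, and the adjusted p was 0.0579 to 0.146 (edgeR) without any other single library. WRKY46 (AT2G46400), which acts together with WRKY53 and WRKY70 in basal resistance, was at 2.92, 4.18, 2.42 and 0.799 CPM in Mlp37347, at 2.36, 2.21, 6.89 and 13.3 CPM in Mlp124499 and at 41.5, 24.2, 37.4 and 11.8 CPM in Control. Mlp124499 4 lay above Control 4. WRKY46 fell by 3.43 ± 0.64 in Mlp37347 (log2, SE, adjusted p = 0.0071, edgeR), while its log2 fold change of -2.19 ± 0.60 in Mlp124499 did not pass (adjusted p = 0.061, edgeR). In Mlp124499 it passed without Control 4, Mlp37347 4 or Mlp124499 4 (adjusted p = 0.0435, 0.0326 and 0.0103, edgeR).

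WRKY38 (AT5G22570) and WRKY62 are a related pair known as negative regulators of basal defence. WRKY38 was at 0.339, 0.826, 0.251 and 0.0887 CPM in Mlp37347, at 0.454, 0.820, 1.32 and 0.713 CPM in Mlp124499 and at 3.32, 3.91, 5.10 and 1.28 CPM in Control. Mlp124499 3 lay just above Control 4, and the other effector libraries lay below Control. WRKY38 fell by 3.06 ± 0.58 in Mlp37347 (log2, SE, adjusted p = 0.0078, edgeR). Its log2 fold change in Mlp124499 was -2.01 ± 0.55 (adjusted p = 0.060, edgeR), and it passed without Control 4 (adjusted p = 0.0305, edgeR) or Mlp37347 4 (adjusted p = 0.0307, edgeR). Leaving out Mlp37347 2 moved its log2 fold change in Mlp37347 to -3.72. WRKY55 (AT2G40740), reported to promote senescence and salicylic acid accumulation, was at 0.465, 0.207, 0.418 and 0.532 CPM in Mlp37347, at 0.363, 0.410, 0.542 and 0.648 CPM in Mlp124499 and at 2.65, 1.56, 2.01 and 1.001 CPM in Control. No effector library reached the lowest Control library. WRKY55 fell by 2.12 ± 0.41 in Mlp37347 (log2, SE, adjusted p = 0.0086, edgeR) and by 1.81 ± 0.41 in Mlp124499 (adjusted p = 0.026, edgeR). The call in Mlp124499 was lost without Control 1, Control 2, Control 3, Mlp37347 3 or Mlp124499 1, 2 or 3 (adjusted p = 0.0504 to 0.108, edgeR).

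The other 3 tested members of group III did not pass in either line, although all their Mlp37347 libraries lay below Control. WRKY54 (AT2G40750), the neighbour of WRKY55 on chromosome 2 and a partner of WRKY70 in restraining senescence, was at 6.18, 5.99, 7.77 and 0.799 CPM in Mlp37347, at 3.36, 3.44, 4.49 and 10.8 CPM in Mlp124499 and at 23.4, 22.7, 21.2 and 8.32 CPM in Control. WRKY30 (AT5G24110), whose window holds 3 W boxes, was at 0.550, 0.413, 0.752 and 4.88 CPM in Mlp37347, at 1.72, 2.46, 2.32 and 3.37 CPM in Mlp124499 and at 9.56, 5.08, 8.26 and 5.14 CPM in Control. WRKY30 did not overlap with Control in either line, and Mlp37347 4 was close to the lowest Control library. WRKY62 was at or under 0.296 CPM in Mlp37347, at or under 1.30 CPM in Mlp124499 and at 0.488 to 3.09 CPM in Control. The log2 fold changes of WRKY54, WRKY30 and WRKY62 were -1.85, -2.14 and -2.97 in Mlp37347 (adjusted p = 0.060, 0.060 and 0.077, edgeR) and -1.75, -1.48 and -2.01 in Mlp124499 (adjusted p = 0.11, 0.26 and 0.30, edgeR).

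Group IIa holds WRKY18, WRKY40 and WRKY60, related proteins that bind one another and act in defence and abscisic acid signalling. WRKY40 fell in both lines, WRKY60 passed in neither, and WRKY18 differed between the lines. WRKY40 (AT1G80840) was at 11.9, 16.9, 10.9 and 29.9 CPM in Mlp37347, at 10.2, 9.76, 11.5 and 13.9 CPM in Mlp124499 and at 55.5, 43.8, 63.2 and 30.2 CPM in Control. Mlp37347 4 came within 1 CPM of Control 4. WRKY40 fell by 1.47 ± 0.32 in Mlp37347 (log2, SE, adjusted p = 0.015, edgeR) and by 2.08 ± 0.33 in Mlp124499 (adjusted p = 0.0053, edgeR). The call in Mlp124499 held without any 1 library, and that in Mlp37347 was lost without Control 3 or Mlp37347 1, 2 or 3 (adjusted p = 0.0534 to 0.0634, edgeR).

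WRKY18 (AT4G31800) was at 70.0, 56.2, 71.5 and 10.7 CPM in Mlp37347, at 6.26, 7.05, 9.14 and 19.3 CPM in Mlp124499 and at 26.5, 23.6, 26.5 and 13.6 CPM in Control. Mlp37347 1 to 3 were above every Control library and Mlp37347 4 below every one, while Mlp124499 1 to 3 were below Control and Mlp124499 4 within its range. WRKY18 was higher in Mlp37347 than in Mlp124499 by 2.32 ± 0.52 (log2, SE, adjusted p = 0.035, edgeR). Its log2 fold changes against Control, 1.21 ± 0.50 in Mlp37347 and -1.10 ± 0.51 in Mlp124499, did not pass (adjusted p = 0.15 and 0.31, edgeR). Without Mlp37347 4 it was 1.59 in Mlp37347 against Control and passed (adjusted p = 0.0079, edgeR). The difference between the lines held only without Control 1, Control 4, Mlp37347 4 or Mlp124499 4, with an adjusted p of 0.0561 to 0.112 (edgeR) without any other library. WRKY60 (AT2G25000) was at 2.04 to 5.26 CPM in Mlp37347, 2.71 to 7.65 CPM in Mlp124499 and 4.47 to 10.3 CPM in Control, with log2 fold changes of -0.97 and -0.84 (adjusted p = 0.13 and 0.30, edgeR).

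**Figure D4:**
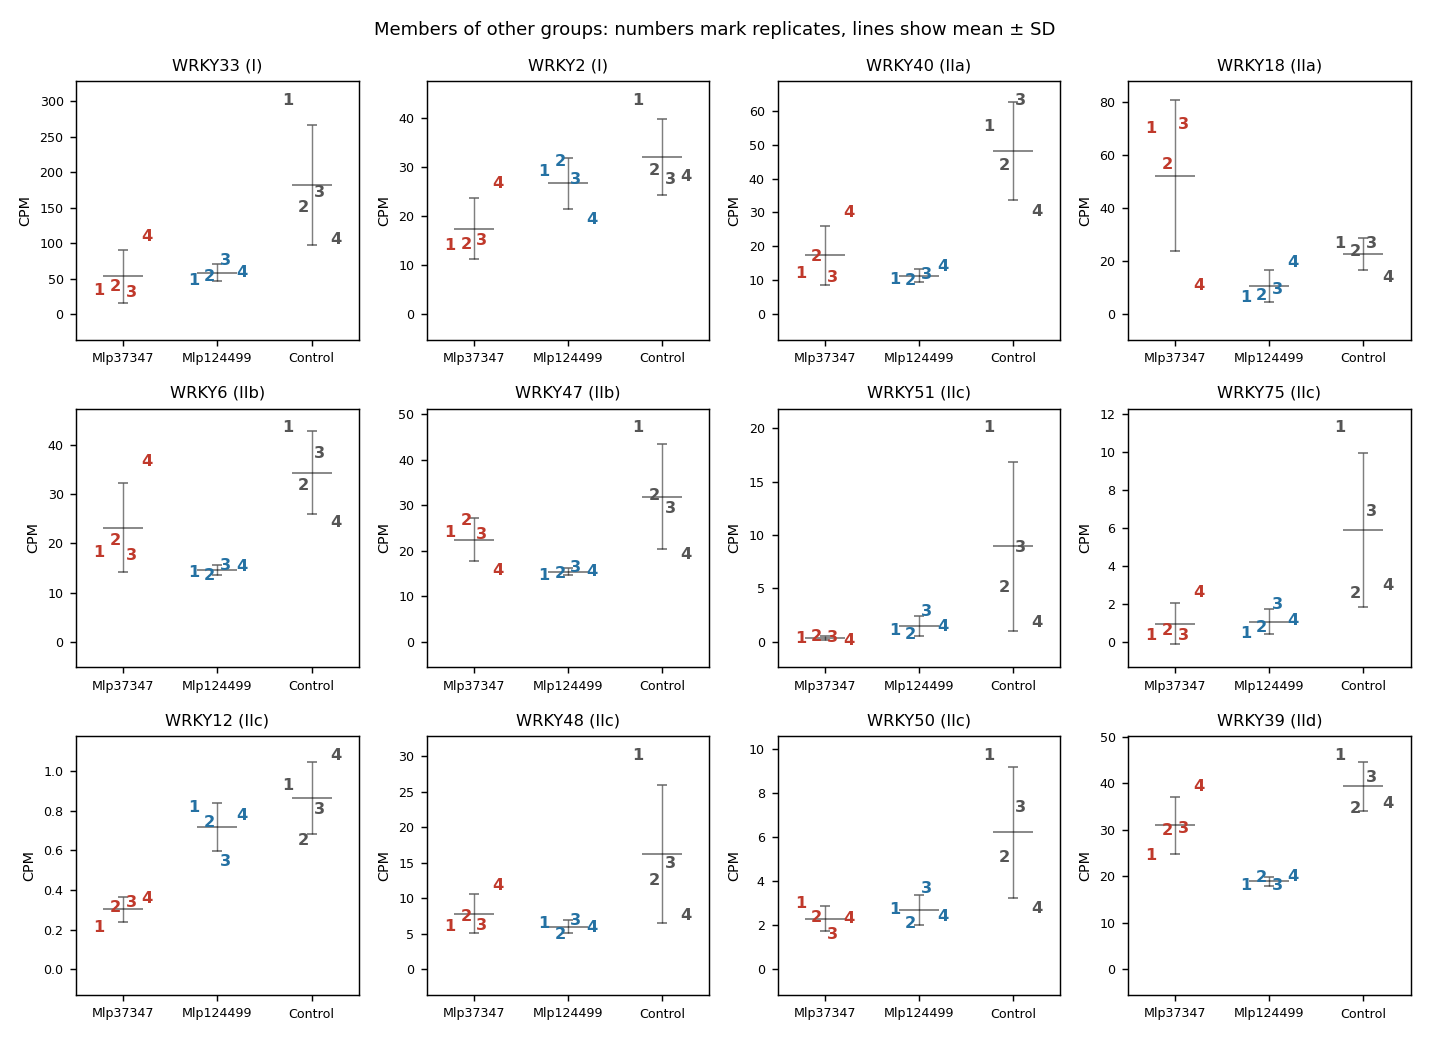
CPM of WRKY members outside group III that passed an adjusted p of 0.05 in at least 1 comparison, except WRKY28 and WRKY57, which are not shown. Digits mark libraries 1 to 4 of Mlp37347, Mlp124499 and Control and lines the mean ± SD. WRKY18 is at 56.2 to 71.5 CPM in Mlp37347 1 to 3, against 6.26 to 9.14 CPM in Mlp124499 1 to 3, with both libraries numbered 4 between.

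Group IIc had 11 tested members, of which 5 fell in Mlp37347 and 3 in Mlp124499, with median log2 fold changes of -1.20 and -1.18. WRKY51 (AT5G64810) and WRKY50 mediate repression of jasmonate responses by salicylic acid. WRKY51 was at 0.296, 0.465, 0.418 and 0.0887 CPM in Mlp37347, at 1.09, 0.656, 2.79 and 1.43 CPM in Mlp124499 and at 20.0, 5.08, 8.86 and 1.80 CPM in Control. The Control libraries themselves spanned a wide range, and Mlp124499 3 lay inside it. WRKY51 fell by 4.72 ± 0.76 in Mlp37347 (log2, SE, adjusted p = 0.0035, edgeR), the greatest fall of any tested member there, and by 2.55 ± 0.66 in Mlp124499 (adjusted p = 0.048, edgeR). Without Control 1 the log2 fold changes were -3.96 in Mlp37347 (adjusted p = 0.0065, edgeR) and -1.79 in Mlp124499 (adjusted p = 0.13, edgeR). In Mlp124499 the call held only without Control 4 or Mlp37347 4 and was lost without each of the other 10 (adjusted p = 0.0564 to 0.161, edgeR). WRKY50 (AT5G26170) was at 2.96, 2.32, 1.59 and 2.31 CPM in Mlp37347, at 2.72, 2.05, 3.64 and 2.40 CPM in Mlp124499 and at 9.69, 5.08, 7.32 and 2.75 CPM in Control. Control 4 lay inside the range of both effector lines. WRKY50 fell by 1.40 ± 0.37 in Mlp37347 (log2, SE, adjusted p = 0.033, edgeR), a call lost without Control 1, 2 or 3 or Mlp37347 1, 2 or 3 (adjusted p = 0.0610 to 0.110, edgeR), and its -1.18 in Mlp124499 (adjusted p = 0.098, edgeR) passed without Control 4 (adjusted p = 0.026, edgeR) and in DESeq2 (adjusted p = 0.045).

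WRKY75 (AT5G13080), known from phosphate starvation and senescence, was at 0.339, 0.568, 0.334 and 2.57 CPM in Mlp37347, at 0.454, 0.738, 1.94 and 1.10 CPM in Mlp124499 and at 11.3, 2.54, 6.85 and 2.95 CPM in Control. Mlp37347 4 lay inside the Control range. WRKY75 fell by 2.67 ± 0.72 in Mlp37347 (log2, SE, adjusted p = 0.037, edgeR) and was at -2.44 ± 0.71 in Mlp124499 (adjusted p = 0.076, edgeR). In Mlp37347 the call was lost without Control 1 or 3, Mlp37347 1, 2 or 3 or Mlp124499 2 (adjusted p = 0.0552 to 0.122, edgeR). Without Mlp37347 4 the log2 fold changes were -3.73 in Mlp37347 (adjusted p = 0.0025, edgeR) and -2.38 in Mlp124499 (adjusted p = 0.0192, edgeR).

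WRKY12 (AT2G44745), a repressor of secondary wall formation in stem pith, was at 0.212, 0.310, 0.334 and 0.355 CPM in Mlp37347, at 0.816, 0.738, 0.542 and 0.778 CPM in Mlp124499 and at 0.929, 0.651, 0.805 and 1.08 CPM in Control. Only the Mlp37347 libraries were apart from Control, at levels under 1 CPM. WRKY12 fell by 1.54 ± 0.34 in Mlp37347 (log2, SE, adjusted p = 0.017, edgeR) and was at -0.28 in Mlp124499 (adjusted p = 0.79, edgeR), while the difference between the lines was -1.26 ± 0.35 (adjusted p = 0.081, edgeR). Its call was lost without Mlp37347 1, 2 or 3 (adjusted p = 0.0578 to 0.0855, edgeR). WRKY48 (AT5G49520), a repressor of resistance to Pseudomonas syringae, was at 5.97, 7.44, 6.18 and 11.8 CPM in Mlp37347, at 6.44, 4.84, 6.89 and 5.90 CPM in Mlp124499 and at 30.1, 12.6, 14.8 and 7.60 CPM in Control. WRKY48 fell by 1.42 ± 0.37 in Mlp124499 (log2, SE, adjusted p = 0.0499, edgeR), at the edge of the threshold, and was at -1.04 ± 0.36 in Mlp37347 (adjusted p = 0.096, edgeR). The call in Mlp124499 held only without Control 4 or Mlp37347 4 (otherwise adjusted p = 0.0693 to 0.182, edgeR), and in Mlp37347 WRKY48 passed without Control 4 (adjusted p = 0.0367, edgeR) or Mlp37347 4 (adjusted p = 0.0314, edgeR).

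WRKY57 and WRKY28 were the other called members of group IIc. WRKY57 (AT1G69310), linked to drought tolerance and jasmonate-induced senescence, was at 5.17 to 9.58 CPM in Mlp37347, 7.74 to 10.9 CPM in Mlp124499 and 8.53 to 17.7 CPM in Control. It fell by 0.99 ± 0.26 in Mlp37347 (log2, SE, adjusted p = 0.035, edgeR), and the call was lost without Control 1, 2 or 3, Mlp37347 1, 2 or 3 or Mlp124499 2 (adjusted p = 0.0608 to 0.131, edgeR). WRKY28 (AT4G18170), reported to activate the salicylic acid gene ICS1, was at 5.501 to 12.1 CPM in Mlp37347, 3.10 to 4.84 CPM in Mlp124499 and 8.22 to 9.60 CPM in Control. It fell by 1.22 ± 0.26 in Mlp124499 (log2, SE, adjusted p = 0.022, edgeR), without overlap with Control, a call lost without Control 2 or 3 or Mlp124499 1, 2 or 3 (adjusted p = 0.0538 to 0.0820, edgeR). The other 4 listed members of the subgroup, WRKY8, WRKY13, WRKY23 and WRKY45, passed in no comparison. WRKY8 came nearest at -1.20 ± 0.35 in Mlp37347 (adjusted p = 0.052, edgeR) and -1.27 ± 0.35 in Mlp124499 (adjusted p = 0.064, edgeR).

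Group I had 10 tested members, with median log2 fold changes of -0.24 in Mlp37347 and -0.14 in Mlp124499, and 2 fell in Mlp37347 and 1 in Mlp124499. WRKY33 (AT2G38470), a substrate of the kinases MPK3 and MPK6 and an activator of camalexin synthesis, was at 33.9, 38.7, 30.7 and 109 CPM in Mlp37347, at 47.3, 52.9, 75.1 and 58.2 CPM in Mlp124499 and at 302, 150, 172 and 105 CPM in Control. Mlp37347 4 was within the Control range and the Mlp124499 libraries were below it. WRKY33 fell by 1.78 ± 0.43 in Mlp37347 (log2, SE, adjusted p = 0.023, edgeR) and by 1.64 ± 0.42 in Mlp124499 (adjusted p = 0.048, edgeR). Without Mlp37347 4 its log2 fold change in Mlp37347 was -2.36 (adjusted p = 6.8e-04, edgeR), and the call was lost without Control 1 or 3 or Mlp37347 1, 2 or 3 (adjusted p = 0.0546 to 0.0856, edgeR). The call in Mlp124499 held only without Control 4 or Mlp37347 4 (otherwise adjusted p = 0.0591 to 0.162, edgeR). WRKY33 overlaps annotated genes on the other strand, and whether counting used strand is not given in the sources used here. How reads in these overlaps were counted is therefore not known.

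WRKY2 (AT5G56270), known from zygote polarity and pollen, was at 14.05, 14.1, 14.95 and 26.7 CPM in Mlp37347, at 29.0, 31.1, 27.4 and 19.3 CPM in Mlp124499 and at 43.7, 29.2, 27.5 and 28.2 CPM in Control. It fell by 0.88 ± 0.25 in Mlp37347 (log2, SE, adjusted p = 0.048, edgeR), with Mlp37347 4 just under the lowest Control library, and was at -0.26 in Mlp124499 (adjusted p = 0.72, edgeR). The call held only without Mlp37347 4 or Mlp124499 4 (otherwise adjusted p = 0.0586 to 0.166, edgeR). The other 8 tested members, WRKY1, WRKY3, WRKY4, WRKY20, WRKY25, WRKY26, WRKY32 and the trichome regulator WRKY44, passed in no comparison. Among them WRKY20 was the most even, at 41.5 to 50.4 CPM in Mlp37347, 38.7 to 48.3 CPM in Mlp124499 and 40.2 to 56.7 CPM in Control. WRKY26, which acts with WRKY25 and WRKY33 in heat responses, spread widely inside each group, at 16.9 to 97.8 CPM in Mlp37347, 12.8 to 77.0 CPM in Mlp124499 and 26.7 to 94.4 CPM in Control.

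Group IIb had 6 tested members, of which 0 fell in Mlp37347 and 2 in Mlp124499, with medians of -0.09 and -1.09. WRKY6 (AT1G62300), a regulator of senescence and of the phosphate exporter gene PHO1, was at 18.1, 20.7, 17.5 and 36.6 CPM in Mlp37347, at 14.1, 13.4, 15.5 and 15.2 CPM in Mlp124499 and at 43.5, 31.8, 38.3 and 24.2 CPM in Control. The Mlp124499 libraries were close together and below Control, and Mlp37347 4 lay among the Control libraries. WRKY6 fell by 1.24 ± 0.25 in Mlp124499 (log2, SE, adjusted p = 0.017, edgeR), a call lost without Control 3 or Mlp124499 1 or 2 (adjusted p = 0.0631 to 0.0843, edgeR). In Mlp37347 it was at -0.57 ± 0.25 (adjusted p = 0.18, edgeR), and without Mlp37347 4 at -0.83 (adjusted p = 0.0102, edgeR). WRKY47 (AT4G01720) was at 24.0, 26.7, 23.5 and 15.6 CPM in Mlp37347, at 14.5, 15.0, 16.3 and 15.4 CPM in Mlp124499 and at 47.0, 32.0, 29.3 and 19.1 CPM in Control. WRKY47 fell by 1.05 ± 0.25 in Mlp124499 (log2, SE, adjusted p = 0.032, edgeR) without overlap with Control, and the call held only without Control 4, Mlp37347 4 or Mlp124499 4 (otherwise adjusted p = 0.0570 to 0.121, edgeR). WRKY31, WRKY36, WRKY42 and WRKY61, the other tested members, were all at or under 2.99 CPM and passed in no comparison. For WRKY31 the lines stood apart, at 0.532 to 2.34 CPM in Mlp37347 and 0.164 to 0.310 CPM in Mlp124499, with a log2 difference of 2.47 ± 0.70 that did not pass (adjusted p = 0.087, edgeR).

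Group IId, whose members bind calmodulin, had 6 tested members, of which 1 fell in Mlp124499 and 0 in Mlp37347, with medians of -0.45 and 0.03. WRKY39 (AT3G04670), known from heat tolerance, was at 24.5, 29.8, 30.2 and 39.3 CPM in Mlp37347, at 18.1, 19.7, 17.9 and 19.8 CPM in Mlp124499 and at 45.9, 34.5, 41.2 and 35.6 CPM in Control. All 4 Mlp124499 libraries were below all others. WRKY39 fell by 1.06 ± 0.17 in Mlp124499 (log2, SE, adjusted p = 0.0058, edgeR), a call kept without any 1 library, and was at -0.34 ± 0.17 in Mlp37347 (adjusted p = 0.22, edgeR). WRKY15, WRKY7, WRKY11, WRKY17 and WRKY21 passed in no comparison. WRKY15 (AT2G23320), the member with the highest mean per kb in both effector lines, was at 54.1, 56.6, 57.6 and 208 CPM in Mlp37347, at 53.5, 65.6, 32.1 and 43.3 CPM in Mlp124499 and at 72.9, 87.0, 119 and 90.6 CPM in Control, so that Mlp37347 4 was above every Control library and the other effector libraries below every one.

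Group IIe, which includes WRKY22 and WRKY29 of the flagellin response, had 6 tested members and 0 calls in any comparison (edgeR, with 1 member at an unadjusted p under 0.05 in Mlp37347 and 2 in Mlp124499), with medians of -0.21 in Mlp37347 and -0.15 in Mlp124499. WRKY29 was at 11.04, 10.7, 9.61 and 1.60 CPM in Mlp37347, at 2.81, 2.95, 2.71 and 6.35 CPM in Mlp124499 and at 5.84, 2.60, 3.49 and 5.26 CPM in Control. WRKY65 was at 2.40 to 3.93 CPM in Mlp37347, 2.09 to 4.86 CPM in Mlp124499 and 0.796 to 2.21 CPM in Control, with log2 fold changes of 0.89 and 0.99 that did not pass (adjusted p = 0.13 and 0.16, edgeR). WRKY14, WRKY22, WRKY27 and WRKY69 lay between -0.60 and 0.34 in both lines.

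Set against each other, the effector lines differed in 2 members, WRKY18 and WRKY39, both higher in Mlp37347. These were 4% of the 50 tested, beside 1.1% of all tested genes for higher and 1.59% for lower values in Mlp37347. All Mlp37347 libraries lay above all Mlp124499 libraries for 6 members (12%, against 5.32% of all genes) and below them for 3 (6%, against 5.58%). WRKY39 was higher by 0.71 ± 0.17 (log2, SE, adjusted p = 0.046, edgeR) without overlap, and this call held only without Control 1, Mlp37347 4 or Mlp124499 4 (otherwise adjusted p = 0.0629 to 0.130, edgeR). No member was lower in Mlp37347 at the adjusted threshold by edgeR, where 15 members of the 50 had an unadjusted p under 0.05 in either direction, and DESeq2 called 1 lower (3.65% of all genes). Across group III the differences between the lines ran from -1.24 for WRKY46 to -0.09 for WRKY54, and none passed.

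**Figure D5:**
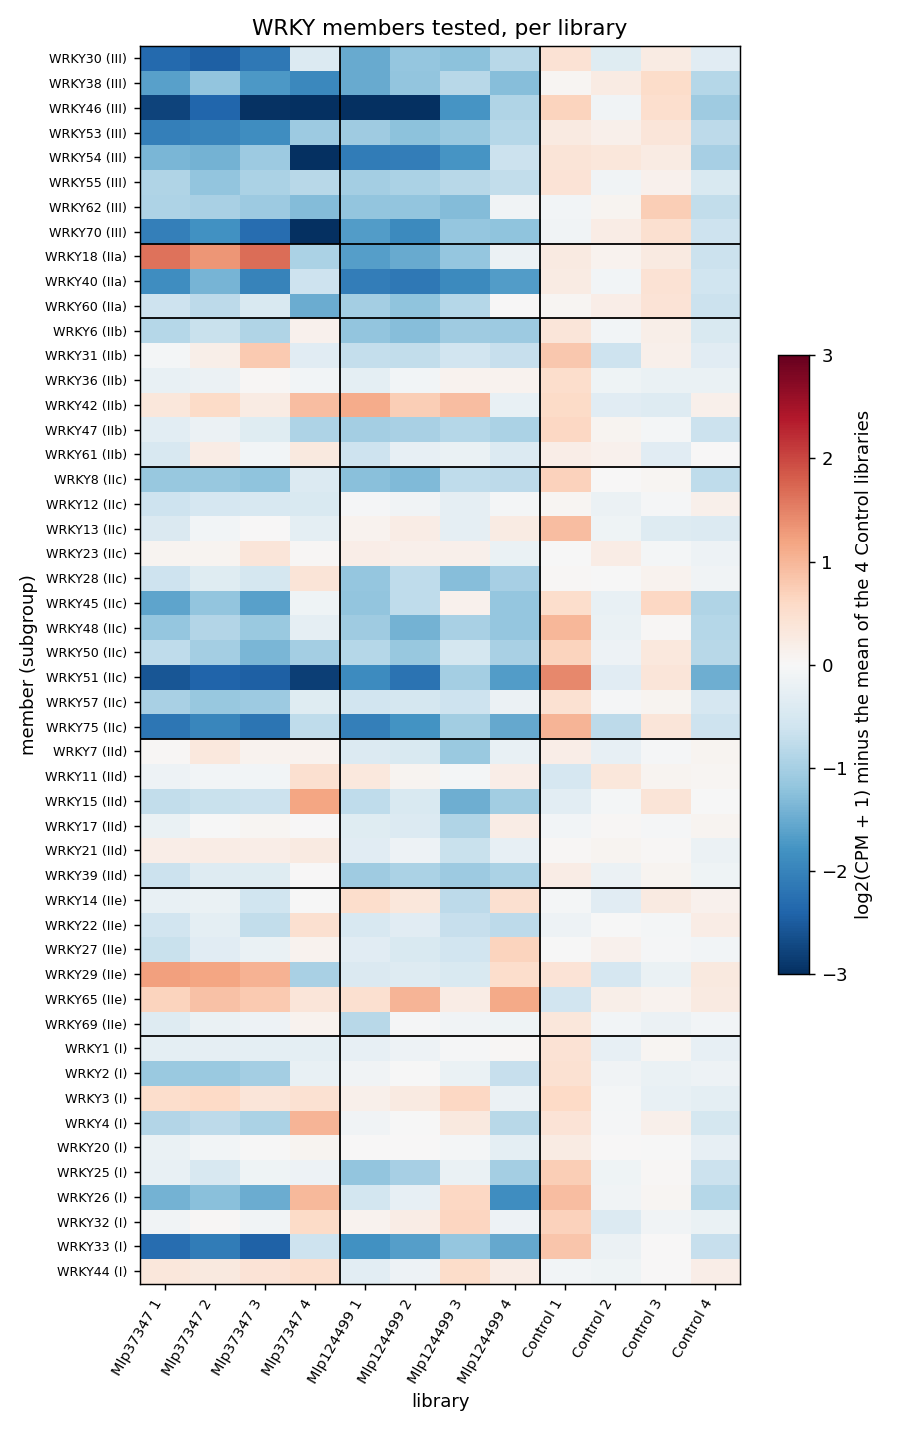
Log2 of CPM + 1 of the 50 tested WRKY members in each of the 12 libraries, relative to the mean of the 4 Control libraries, by subgroup, with Mlp37347 left, Mlp124499 in the middle and Control right. Group III and several IIc members are mostly below the Control mean in both effector lines, group III least so in Mlp124499 4. Mlp37347 4 and Mlp124499 4 differ from libraries 1 to 3 of their lines.

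Several libraries departed from the other 3 of their group. Mlp37347 4 was more than 1.5-fold above Mlp37347 1 to 3 for 16 of 50 members and below for 11, and Mlp124499 4 was above for 8 and below for 3, against 7 and 3 for Mlp124499 3. Control 1 was above the other Control libraries by the same margin for 13 members and below for 2. Control 4 was below Control 1 to 3 by that margin for 15 members and above for 0. Control 1 was the highest Control library for 31 of 50 members, and Control 4 the lowest for 29. Without Mlp37347 4, 21 members fell and 2 rose in Mlp37347, while 11.1% of all genes fell and 11.6% rose. Without Mlp124499 4, 12 members fell in Mlp124499 while 5.62% of all genes did, against 11 members and 2.71% of all genes with it.

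Genes that act with WRKY proteins were counted in the same fit. There 5.42% of all tested genes fell and 3.19% rose in Mlp37347, and 2.71% fell and 1.56% rose in Mlp124499. These shares stand beside each list below. Of 14 tested genes reported as WRKY targets, 6 fell in Mlp37347 and 3 in Mlp124499, with 0 rising, and medians of -1.32 and -1.15. Log2 fold changes were positive for 3 of them in Mlp37347, up to 1.31, and for 2 in Mlp124499, up to 2.85, and none of these passed. The list was not split into genes reported as activated or as repressed by WRKY proteins. Its counts and medians therefore carry no direction of WRKY action. PBS3, needed for salicylic acid synthesis and reported as a target of WRKY46, was at 2.92, 2.74, 3.09 and 3.02 CPM in Mlp37347, at 3.08, 2.46, 5.96 and 7.39 CPM in Mlp124499 and at 27.9, 28.6, 63.4 and 18.1 CPM in Control. PBS3 fell by 3.55 ± 0.43 in Mlp37347 (log2, SE, adjusted p = 0.0011, edgeR) and its log2 fold change in Mlp124499 was -2.86 ± 0.41 (adjusted p = 0.0043, edgeR). The camalexin genes CYP71A13 and PAD3, targets of WRKY33, fell by 3.66 ± 0.79 and 2.80 ± 0.61 in Mlp37347 (log2, SE, adjusted p = 0.015 and 0.016, edgeR). FRK1, a marker of pattern-triggered immunity, fell by 2.32 ± 0.42 in Mlp37347 (adjusted p = 0.0064, edgeR). ICS1, the main salicylic acid synthesis gene, and EDS1, an immune regulator, fell by 1.51 ± 0.34 and 1.14 ± 0.22 in Mlp124499 (adjusted p = 0.026 and 0.011, edgeR), and also fell in Mlp37347. With 1 library left out at a time the counts of fallen targets ran from 4 to 9 in Mlp37347 and from 1 to 6 in Mlp124499. In these fits, which also serve the lists below, 2.08% to 11.1% of all genes fell in Mlp37347 and 0.765% to 5.62% in Mlp124499.

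VQ-motif proteins bind WRKY proteins, and of 11 tested genes 4 fell in Mlp37347 and 1 in Mlp124499, with 0 rising. The locus AT1G78410 was at 1.35, 1.24, 1.59 and 1.33 CPM in Mlp37347, at 1.27, 1.31, 1.63 and 2.59 CPM in Mlp124499 and at 7.83, 7.75, 9.60 and 4.93 CPM in Control. It fell by 2.44 ± 0.30 in Mlp37347 (log2, SE, adjusted p = 0.0011, edgeR) and by 2.13 ± 0.29 in Mlp124499 (adjusted p = 0.0037, edgeR). SIB1 and SIB2, partners of WRKY33, and JAV1, a repressor of jasmonate defence, fell by 1.34 ± 0.31, 1.77 ± 0.49 and 1.54 ± 0.35 in Mlp37347 (adjusted p = 0.022, 0.043 and 0.019, edgeR). Leaving out 1 library gave 1 to 4 fallen VQ genes in Mlp37347 and 1 to 2 in Mlp124499.

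Of 12 kinases upstream of WRKY proteins, 2 fell in Mlp37347 and 1 in Mlp124499. MPK3, which phosphorylates WRKY33, fell by 1.04 ± 0.25 (log2, SE, adjusted p = 0.023, edgeR) and MKK2 by 0.64 ± 0.18 (adjusted p = 0.041, edgeR) in Mlp37347. CPK11, a calcium-dependent kinase, was at 45.1, 47.8, 43.2 and 79.8 CPM in Mlp37347, at 16.6, 17.1, 25.2 and 24.5 CPM in Mlp124499 and at 47.3, 38.2, 42.4 and 38.7 CPM in Control. CPK11 fell by 0.99 ± 0.23 in Mlp124499 (adjusted p = 0.028, edgeR) and was higher in Mlp37347 than in Mlp124499 by 1.37 ± 0.23 (adjusted p = 0.0088, edgeR). Kinase counts ran from 0 to 3 in each line with 1 library left out.

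Of 10 touch and rapid stress genes, which respond to handling as several WRKY genes do, 0 passed in Mlp37347 (edgeR, 5 with an unadjusted p under 0.05, and at most 1 with 1 library left out) and 2 fell in Mlp124499. These were TCH3, a calmodulin-like gene, by 1.51 ± 0.34 (log2, SE, adjusted p = 0.027, edgeR), and ERF104, a substrate of MPK6, by 1.21 ± 0.30 (adjusted p = 0.040, edgeR), and 0 to 5 fell with 1 library left out. Of 4 tested senescence genes 1 fell in each line, the chlorophyll degradation gene SGR1 by 1.01 ± 0.29 in Mlp37347 (adjusted p = 0.049, edgeR) and SAG13 by 2.12 ± 0.49 in Mlp124499 (adjusted p = 0.029, edgeR), and these counts ran from 0 to 3 and from 0 to 1. Of 9 clock genes 4 rose and 1 fell in Mlp37347 and 3 rose in Mlp124499. PRR5 rose by 5.91 ± 0.995 in Mlp37347 (log2, SE, adjusted p = 0.0045, edgeR) and by 5.08 ± 0.97 in Mlp124499 (adjusted p = 0.012, edgeR), although Mlp124499 4 was at the level of Control. ELF4 rose by 3.58 ± 0.90 and 5.01 ± 0.91 (adjusted p = 0.029 and 0.0094, edgeR) and GI by 2.76 ± 0.48 and 2.54 ± 0.48 (adjusted p = 0.0053 and 0.011, edgeR) in Mlp37347 and Mlp124499, and LHY fell by 3.57 ± 0.71 in Mlp37347 (adjusted p = 0.0098, edgeR). In unscaled counts ELF4 had 5 in Mlp124499 4, against 63 to 112 in Mlp124499 1 to 3 and 1 to 10 in Control. GI had 386 counts in Mlp124499 4, against 1151 to 1589 in Mlp124499 1 to 3 and 103 to 696 in Control.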

How the data were processed

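RNA sequencing counts of 12 libraries (3 groups of 4) were analysed. Trimmomatic trimmed the reads, which were then aligned to TAIR10 with TopHat2 2.0.14 and counted per Ensembl Plants locus with GenomicAlignments in union mode under R 3.2.5, per the submitters' processing notes and the design text. The deposited counts are the authors' whole numbers of read pairs per locus, not normalised, and no source used here gives strand use or the treatment of multiple alignments. The authors' table of reads per library was used for alignment shares and mate inner distances.

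In edgeR 4.0.16 (R 4.3.3, limma 3.58.1) counts were filtered with filterByExpr, then TMM-scaled and fitted by glmQLFit and glmQLFTest on all 12 libraries, with 1 coefficient per group, no covariate and Benjamini-Hochberg adjustment over the genes tested at 0.05. The standard error of a log2 fold change is its size over the square root of F. The scripts were tested on simulated data. DESeq2 1.42.0 was an alternative, beside other scalings, no filter, a stricter threshold of 0.01, a replicate block, the mate inner distance as a covariate, fits on 2 groups and fits without single libraries.

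The members, subgroups and gene lists were chosen with earlier results of these data known. Values per library are given for members past the threshold in at least 1 comparison, at most 5 per subgroup by largest absolute log2 fold change, with members outside this rule given by range or named after their values were seen (WRKY54, WRKY30, WRKY15, WRKY29), and up to 4 called genes per list and effector comparison. Gene names, exon lengths and promoter windows came from the TAIR10.1 annotation and genome of RefSeq, to which all 55 members matched by locus. The deposited counts carry no coordinates. On that annotation 12 of 55 members overlap a locus on the other strand, among them WRKY2, WRKY29, WRKY33, WRKY40 and WRKY53, so their counts are uncertain. No pair of libraries of a group agreed within sampling noise, and replicates are not known to be separate cultures.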

Additional observations from a re-analysis of the deposited data

Results flagged for a closer look

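Among 150 groups of 4 libraries (50 members in 3 groups), 26 held a library whose gap to its neighbour exceeded Dixon's critical share of the group's range. Chance gives about 1 in 20 groups where values are normally distributed and groups are independent. These 150 groups share the same libraries, so the 26 cannot be set against that rate. Mlp37347 4 was the outlying library 13 times, Mlp124499 4 5 times and Control 1 4 times. Mlp37347 4 was far above the other 3 libraries for WRKY2 (26.7 CPM, against 14.05 to 14.95), WRKY4 (85.5, against 21.3 to 23.9), WRKY6 (36.6, against 17.5 to 20.7) and WRKY8 (5.94, against 3.01 to 3.22). It was likewise above for WRKY11 (41.3 CPM, against 26.1 to 27.7), WRKY15 (208, against 54.1 to 57.6), WRKY26 (97.8, against 16.9 to 20.2) and WRKY30 (4.88, against 0.413 to 0.752). The same held for WRKY33 (109 CPM, against 30.7 to 38.7), WRKY53 (14.3, against 6.77 to 7.93), WRKY57 (9.58, against 5.17 to 5.88) and WRKY75 (2.57, against 0.334 to 0.568), and Mlp37347 4 was far below for WRKY29 (1.60 CPM, against 9.61 to 11.04).

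Mlp124499 4 was far above Mlp124499 1 to 3 for WRKY27 (6.29 CPM, against 2.09 to 2.63), WRKY29 (6.35, against 2.71 to 2.95), WRKY54 (10.8, against 3.36 to 4.49) and WRKY62 (1.30, against 0 to 0.0907), and below for WRKY23 (2.66, against 3.64 to 3.81). Control 1 was far above Control 2 to 4 for WRKY2 (43.7 CPM, against 27.5 to 29.2), WRKY13 (4.65, against 1.23 to 1.69), WRKY36 (2.52, against 1.14 to 1.24) and WRKY69 (6.77, against 4.43 to 4.83). The rest were Control 4 for WRKY54 (8.32 CPM, against 21.2 to 23.4), Mlp37347 3 for WRKY23 (4.43, against 3.28 to 3.46), Mlp124499 3 for WRKY25 (52.4, against 26.3 to 29.8) and Mlp124499 1 for WRKY69 (2.45, against 4.60 to 5.003).

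The effector lines differed under the test of the difference itself for WRKY18 (log2 difference 2.32, Mlp37347 over Mlp124499) and WRKY39 (0.71).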

How the results depend on the processing

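Of 40 gene results (26 past the threshold), 834 of 839 alternative values kept their sign, including all 545 of those past the threshold. The 5 reversals were all from adding the mate inner distance to the model of Mlp37347 against Control, at 0.31 for WRKY6, -0.37 for WRKY18, 0.34 for WRKY28, 0.060 for WRKY39 and 0.28 for WRKY48. That distance was 110 to 115 bp in Mlp37347 1 to 3, 70 bp in Mlp37347 4 and 50 to 84 bp in the other groups. Control 4 was at 84 bp, against 50 to 60 bp in Control 1 to 3. The slope of the distance comes from the spread within all groups, so the covariate fit leans mostly on Mlp37347 4 and Control 4. With the distance in the model 0 members fell in Mlp37347 (0.555% of all genes) and 4 were higher than in Mlp124499 (0.765%). Of the 13 members called in Mlp37347, WRKY70 (-2.90), WRKY46 (-3.39), WRKY12 (-1.63) and WRKY38 (-2.57) kept their size under it, and the other 9 shrank over 1.5 times, such as WRKY75 (-0.71), WRKY33 (-0.36) and WRKY2 (-0.23). With 1 library left out, 6 to 21 members fell and 0 to 2 rose in Mlp37347, 2 to 18 fell and 0 rose in Mlp124499, and 0 to 7 were higher and 0 to 4 lower in Mlp37347 than in Mlp124499. The highest of these counts came without Mlp37347 4, where 11.1% of all genes fell and 11.6% rose in Mlp37347, 4.28% fell in Mlp124499, and 7.26% were higher and 7.2% lower between the lines. Without both effector libraries numbered 4, 26 fell and 3 rose in Mlp37347 (15.9% and 16.5% of all genes), 23 fell and 1 rose in Mlp124499 (10.5% and 8.99%), and 8 were higher and 6 lower between the lines (13.0% and 12.9%, near the members' shares). DESeq2 called 17 lower in Mlp37347 (7.73% of all genes), 18 in Mlp124499 (4.51%), and 6 higher and 1 lower between the lines (3.53% and 3.65%). At 0.01, 6 fell in Mlp37347 (1.69% of all genes), 2 in Mlp124499 (0.817%) and 0 differed between the lines. Fits on 2 groups gave 7 lower in Mlp37347 (5.8% of all genes), 10 in Mlp124499 (2.54%) and 0 between the lines. RLE size factors, total-count scaling and no filter each gave 1 higher between the lines (1.06%, 0.66% and 0.607% of all genes), 12, 19 and 11 lower in Mlp37347 (5.05%, 9.95% and 3.36%) and 8, 12 and 10 lower in Mlp124499 (2.51%, 3.12% and 1.69%). Total-count scaling moved the median of all genes to -0.19 in Mlp37347, -0.07 in Mlp124499 and -0.13 between the lines. The cause of these changes was not tested. Replicate numbers did not pair the samples (correlations of deviations -0.414 to 0.118, 0 of 12 libraries closest to their own number), and the replicate block gave 7 lower in Mlp37347 (2.96% of all genes), 2 in Mlp124499 (1.18%) and 0 higher between the lines. Low counts limit WRKY12, WRKY38, WRKY51, WRKY55, WRKY62 and WRKY75, most of whose effector libraries were under 1 CPM.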
